A study of Bos taurus with 12 samples.

Results

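The genes described here are those of the NADH:ubiquinone oxidoreductase family, the subunits of respiratory complex I and its NDUFAF assembly factors, in oocytes of cattle. Members were the genes whose single symbol in the array annotation begins with NDUFA, NDUFB, NDUFC, NDUFS or NDUFV and a number, or is NDUFAB1. The NDUFAF genes were kept apart. For each gene the probe set with the highest mean over 12 arrays was used. This gave 38 subunit-type genes, read by 50 probe sets, and 4 assembly factors, read by 7 probe sets, out of 9155 genes with 1 symbol on the array. All 38 and all 4 passed the filter on low signals (a mean above 5.57 log2 units), as did 6842 of the 9155 genes. The rule used names and mean signals only, and no difference between groups. NDUFA4 and NDUFA4L2 match it by name alone: NDUFA4 is now counted as a subunit of complex IV, and NDUFA4L2 is its paralog. The other 36 are complex I subunits.

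Complex I is the entry point of the mitochondrial respiratory chain. It takes electrons from NADH, passes them along iron-sulfur clusters in an arm that projects into the matrix, hands them to ubiquinone, and pumps protons through an arm in the inner membrane. A set of core subunits carries out the chemistry, some of them encoded by mitochondrial DNA, and many accessory subunits stabilise the arms. Assembly factors build the complex and leave it. Oocytes rely on oxidative phosphorylation for much of their ATP during maturation, and they store mitochondria and messenger RNA for the early embryo.

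The samples were 12 pools of 50 oocytes each from Japanese Black cattle, 3 pools in each of 4 groups, with 1 Affymetrix bovine array per pool. The groups were metaphase II (MII) oocytes of prepubertal heifers, MII oocytes of adult cows, germinal vesicle (GV) oocytes of prepubertal heifers and GV oocytes of adult cows. The heifers were 9 to 12 months old; follicles of 2 to 8 mm were aspirated in both age groups. GV oocytes, still arrested in prophase, were taken straight after aspiration, and MII oocytes after 20 to 22 h of maturation in vitro, when a first polar body could be seen. All oocytes were stripped of cumulus cells with hyaluronidase, and the RNA of each pool was amplified (WT-Ovation Pico) and labelled with biotin. Adult ovaries came from an abattoir and heifer ovaries from spaying, so age and the way ovaries were obtained cannot be told apart. The labels call the pools biological replicates without naming the animals behind them, so p-values measure the spread between these pools. Values are deposited MAS5 signals on a log2 scale, 1 unit standing for a doubling. A probe set's brightness is no measure of one gene's transcript number against another's.

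The oocyte label was checked first, and 3 arrays went against it: MII prepubertal replicate 1, GV prepubertal replicate 1 and GV adult replicate 1. The median of 8 oocyte genes was 6.41 to 9.01 on these 3 arrays, against 12.32 to 14.16 on the other 9, and their summed signal was 9.86 to 11.97, against 16.31 to 17.48, on a log2 scale. BMP15, an oocyte growth factor, read 6.55 in MII prepubertal replicate 1, 7.08 in GV prepubertal replicate 1 and 6.47 in GV adult replicate 1. The median of 14 cumulus and granulosa genes was 7.89 to 11.47 on the 3 arrays, against 4.13 to 7.02 on the 9, and their summed signal 12.55 to 18.10, against 11.24 to 14.01. PTX3, a cumulus matrix gene, read 14.53 in MII prepubertal replicate 1, 14.66 in GV prepubertal replicate 1 and 7.61 in GV adult replicate 1. The median of 9 theca and stroma genes was 8.72 to 9.41 against 2.98 to 6.42, and that of 7 blood genes 5.22 to 7.26 against 3.71 to 5.90. The comparisons below are therefore given over all 12 arrays and over the 9 arrays, which leave 2, 3, 2 and 2 pools in the groups as listed above. With the array median subtracted, the cumulus and granulosa median was 4.953 in MII prepubertal replicate 1 and 2.655 in GV prepubertal replicate 1. In GV adult replicate 1 it was -0.410, within the -1.583 to 0.603 of the 9 arrays. The median of that array, 8.305, was the highest of the 12. The theca and stroma median of the same array, 8.719, lay above it. On each of the 9 arrays the theca and stroma median lay below the array median. Why the oocyte signal of GV adult replicate 1 was low was not tested. The part of other cells in any result over 12 arrays was not tested either. In a pool, fewer cells of a type and less RNA per cell cannot be told apart.

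Complex I genes were among the brighter genes of the oocyte arrays. The median subunit stood at the 83.7 to 86.4 percentile of its array in MII prepubertal pools, the 78.5 to 79.7 in MII adult pools, the 87.2 to 90.5 in GV prepubertal pools and the 57.7 to 90.1 in GV adult pools. The lowest of these, 57.7, was GV adult replicate 1, and the other 11 arrays stood at 78.5 or above. The median of all 6842 kept genes stood at 55.8 in that array and at 70.2 to 76.2 in the other 11. Over the 9 arrays, 18 of the 38 genes averaged above 10, against 1815 of 6842 kept genes. The 3 MII adult arrays had the lowest subunit percentiles of the 9 and 21, 22 and 21 subunits above the 75th percentile of the array, against 29, 26 and 25 in MII prepubertal arrays. GV prepubertal arrays had 29, 26 and 28 and GV adult arrays 8, 26 and 31.

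**Figure D1:**
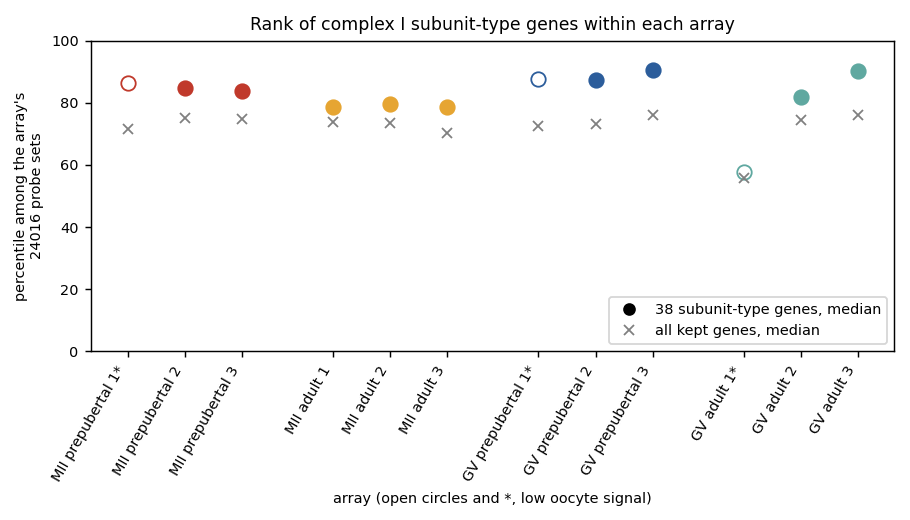
Percentile of the median complex I subunit-type gene (38 genes, circles) and of the median kept gene (6842 genes, crosses) within each array, by group (vertical axis, percentile). The 3 MII adult arrays lie at 78.5 to 79.7, below the 3 MII prepubertal arrays at 83.7 to 86.4, and GV adult replicate 1 lies lowest at 57.7.

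Among the core subunits that oxidise NADH, NDUFV2, which holds an iron-sulfur cluster beside the flavin site, was bright and steady, with 10.36 to 13.32 over the 9 arrays and a within-group SD of 0.65. NDUFS1, the largest core subunit and carrier of several clusters, ran between 8.54 and 11.01 over all 12 arrays. NDUFV1, which binds NADH and the flavin, was dimmer and more variable, 3.17 to 9.85 over the 9 arrays with a within-group SD of 1.91. Of the core subunits toward the quinone site, NDUFS3 read 9.48 to 11.85, NDUFS8 5.60 to 8.61 and NDUFS7 2.85 to 7.99 over the 9 arrays. NDUFS7, which carries the last cluster before ubiquinone, had the second lowest 12-array mean of the members, 5.79, and NDUFS7 and NDUFS8 stood at median percentiles of 30.1 and 52.9.

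NDUFA12, an accessory subunit of the matrix arm, was the brightest member with a 12-array mean of 12.72, and NDUFB1, a small subunit of the distal membrane arm, came next with 12.27. NDUFB1 read 12.13, 13.87 and 12.87 in MII prepubertal pools, 12.04, 11.63 and 12.85 in MII adult pools, 13.06, 10.97 and 12.84 in GV prepubertal pools, and 9.31, 12.84 and 12.82 in GV adult pools. The groups overlapped, and the low value of 9.31 came from GV adult replicate 1. NDUFA6, an LYR-motif protein that docks the acyl carrier NDUFAB1 on the matrix arm, read 12.02 to 13.53 on the 9 arrays and 5.88 on GV adult replicate 1. NDUFA5, another matrix-arm subunit, likewise had its lowest value there, 3.10, against 9.00 to 12.73 on the 9 arrays. Over the 9 arrays the steadiest members within groups were NDUFA12 (SD 0.44), NDUFA6 (0.55), NDUFB10 (0.57) and NDUFV2 (0.65). The most variable were NDUFA3 (3.23), NDUFB6 (2.99), NDUFA8 (2.72) and NDUFB8 (2.49). The median within-group SD of the 38 genes was 1.18 over 9 arrays and 1.67 over 12, against 1.38 and 1.78 over all kept genes.

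NDUFA10, a membrane-arm subunit related to nucleoside kinases, was the dimmest member with a mean of 5.71. It read 8.98, 5.51 and 7.15 in MII prepubertal pools, 4.85, 3.94 and 4.17 in MII adult pools, 9.25, 4.12 and 6.74 in GV prepubertal pools, and 6.25, 4.67 and 2.91 in GV adult pools. Its values of 8.98 and 9.25 came from both prepubertal replicate 1 arrays, which carried the cumulus signal. NDUFS7 read 7.02, 6.90 and 3.69 in MII prepubertal pools, 4.18, 7.99 and 2.85 in MII adult pools, 5.11, 4.83 and 7.56 in GV prepubertal pools, and 6.47, 5.19 and 7.68 in GV adult pools. Its groups overlapped. No detection call was used, so it is not known which of these low signals lay above background.

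**Figure D2:**
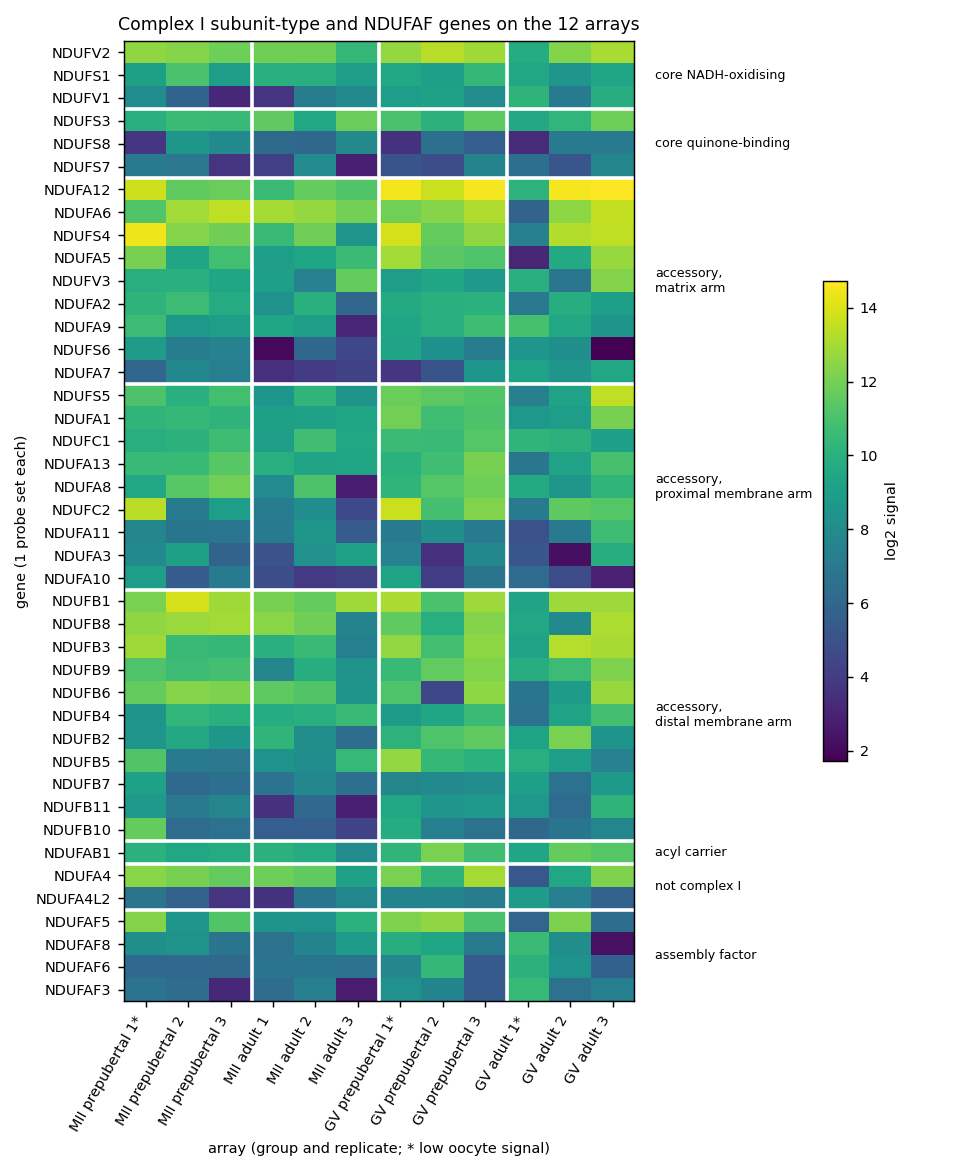
Deposited log2 signal (colour) of 38 subunit-type and 4 NDUFAF genes (down, grouped by role) on 12 arrays (across, by group; an asterisk marks the 3 arrays with low oocyte signal). NDUFA12, NDUFB1, NDUFV2 and NDUFA6 are bright nearly throughout, NDUFA10 and NDUFS7 are dim, and GV adult replicate 1 is low for NDUFA5 (3.10) and NDUFA6 (5.88).

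The first comparison asked how mature oocytes of prepubertal donors differed from those of adults. Most complex I genes had higher mean signals in prepubertal than in adult MII oocytes, but none passed the test across the array. Over 12 arrays 32 of 38 members were higher, against 52.3% of kept genes, with a median log2 difference of 1.05 against 0.08. Over 9 arrays 31 of 38 were higher, against 57.4%, with a median of 1.002 against 0.197. The higher direction of the median held under quantile normalization and median centring of the arrays, and 29 genes were higher and 4 lower in both sets of arrays. With NDUFA4 and NDUFA4L2 left out, 31 of 36 and 30 of 36 were higher. These counts use 1 probe set per gene. Of 15 further probe sets of these and the NDUFAF genes, 8 had the same sign over 9 arrays as the one used. Among the 10 that passed the filter it was 4.

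With limma's test adjusted over 14409 probe sets, 0 members were called, as was 0% of probe sets, over 12 and over 9 arrays. At unadjusted p under 0.05, 5 members were higher over 12 arrays, against 2.54% of kept genes, and 0 were lower, against 0.497%. They were NDUFB11, NDUFA8, NDUFA7, NDUFB9 and NDUFS6. Over 9 arrays 3 were higher, against 1.65%, and 0 lower, against 0.950%, namely NDUFA7, NDUFA8 and NDUFB9. With 1 array left out, the 5 members of the 12 arrays became 0 (without MII adult replicate 3) to 7 (without GV adult replicate 1). Values of the groups did not overlap for 10 members, all higher in prepubertal pools, over 12 arrays, against 6.02% of kept genes higher and 4.33% lower. Over 9 arrays 13 were apart and higher, against 12.0%, and NDUFB5 and NDUFB7 were apart and lower, against 8.07%. The 10 and the 13 both included NDUFA10, whose 12-array mean of 5.71 was just above the filter cut of 5.573. That mean included 7.215 for MII prepubertal pools, the highest of its 4 group means. Its 9-array mean, 4.9, lay below the cut.

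By role, the accessory subunits had the larger median differences. Of 9 accessory genes of the matrix arm, 8 were higher over 12 arrays and 9 over 9 arrays, with medians of 2.05 and 1.62. Of 9 in the proximal membrane arm, 9 and 7 were higher, and of 11 in the distal membrane arm, 9 and 9. Core subunits went both ways, and their medians over 12 and 9 arrays were 0.08 and 0.39 for the 3 NADH-oxidising genes and 0.05 and 0.29 for the 3 quinone-side genes. Over 9 arrays NDUFV1 differed by -1.70, NDUFV2 by 0.73 and NDUFS8 by 1.54. The difference between roles was not tested.

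NDUFB11, a membrane-arm subunit encoded on the X chromosome in mammals, read 8.78, 6.99 and 7.63 in MII prepubertal pools and 3.56, 6.15 and 2.85 in MII adult pools. All prepubertal values lay above all adult ones. The mean was 7.80 ± 0.90 against 4.19 ± 1.74 (SD, n = 3 each), a log2 difference of 3.61 with an SE of 1.39 and an unadjusted p of 0.0172 in limma. Over 9 arrays it was 3.12, with an SE of 1.53 and an unadjusted p of 0.0595 in limma.

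NDUFA8, a twin-cysteine subunit of the intermembrane space side, read 9.51, 11.34 and 11.94 in MII prepubertal pools and 8.02, 11.10 and 2.78 in MII adult pools. The groups overlapped, and MII adult replicate 3 stood far below the other 5 arrays. The log2 difference was 3.63 with an SE of 1.54 over 12 arrays and 4.34 with an SE of 1.70 over 9, with unadjusted limma p-values of 0.0288 and 0.0225. At GV NDUFA8 read 10.24, 11.32 and 11.86 in prepubertal pools and 9.65, 8.63 and 10.25 in adult pools.

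NDUFA7, an accessory subunit of the matrix arm, read 6.0, 7.81 and 7.32 in MII prepubertal pools and 3.48, 4.05 and 4.22 in MII adult pools. The groups did not overlap, and the adult values were low and close together. The log2 difference was 3.13 with an SE of 1.45 over 12 arrays and 3.65 with an SE of 1.42 over 9, with unadjusted limma p-values of 0.0441 and 0.0218. With a pseudocount of 32 on the linear signal, which damps low values, the 12-array difference was 1.83. A second NDUFA7 probe set did not show it: it read 6.36, 6.05 and 5.10 in MII prepubertal pools and 5.47, 6.06 and 7.81 in MII adult pools. Its mean over 12 arrays was 6.20, close to the 6.47 of the probe set used, and its log2 difference was -0.61. With the mean of both probe sets, NDUFA7 differed by 1.26.

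NDUFB9, an LYR-motif subunit of the distal membrane arm, read 11.13, 10.62 and 10.83 in MII prepubertal pools and 7.65, 9.81 and 8.33 in MII adult pools. The prepubertal values lay within a narrow band above all adult values. The log2 difference was 2.26 over 12 arrays (SE 1.08) and 2.13 over 9 (SE 0.92), with unadjusted limma p-values of 0.0489 and 0.0366. NDUFS6, a zinc-binding subunit added late in the assembly of the matrix arm, read 8.86, 7.23 and 7.47 in MII prepubertal pools and 2.06, 6.05 and 4.55 in MII adult pools, without overlap. Its log2 difference was 3.63 over 12 arrays (SE 1.73) and 3.13 over 9 (SE 1.88), with unadjusted limma p-values of 0.0497 and 0.118. The size is uncertain, as it rests in part on the low MII adult values of 2.06 and 4.55.

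**Figure D3:**
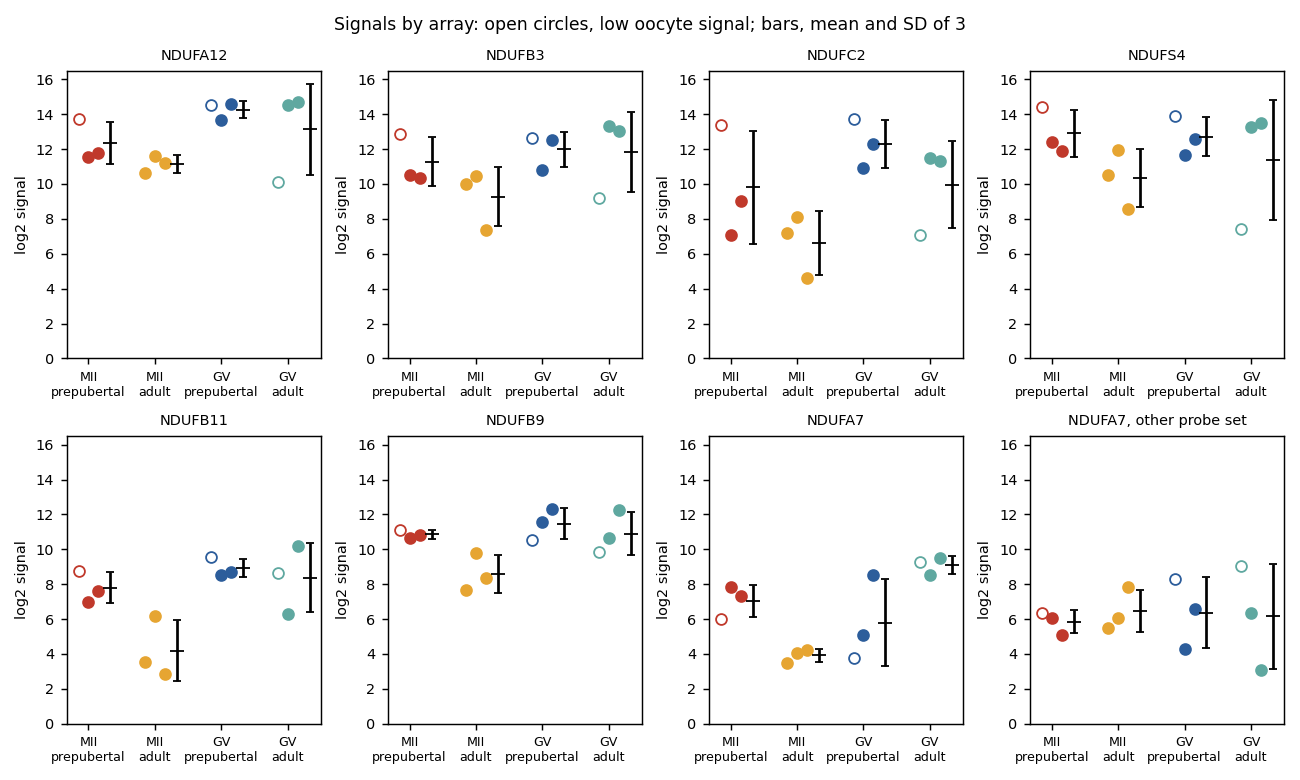
Deposited log2 signal (vertical axis) of 7 members, with the other NDUFA7 probe set, by group on each array; open points are the 3 arrays with low oocyte signal, and bars give the mean and SD of 3 arrays. NDUFB11, NDUFB9 and NDUFA7 are lower in all 3 MII adult pools than in any MII prepubertal pool, and the other NDUFA7 probe set is not.

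The second comparison asked how signals of these genes differed between MII and GV oocytes of adults. All arrays were scaled to the same trimmed mean, so a lower signal is lower relative to the rest of its array. NDUFA12 was lower at MII than at GV in the 9 arrays. It was the 1 member called in any comparison, with 0 called over 12 arrays. Mean signals of most other members were lower at MII as well. Over 12 arrays 25 of 38 were lower, against 50.2% of kept genes, with a median log2 difference of -0.60 against -0.01. Over 9 arrays 30 of 38 were lower, against 52.5%, with a median of -1.29 against -0.11. The median over 12 arrays turned to 0.18, with 18 of 38 lower, when arrays were centred on their medians, a scaling that moved the median of all kept genes to 0.77. With quantile normalization it was -0.11, against 0.42 for all kept genes, so under both scalings the members lay lower than all genes. Over 9 arrays the same centring left it at -1.19. Of the 15 further probe sets, 7 had the same sign over 9 arrays as the one used, and 4 of the 10 that passed the filter.

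NDUFA12 read 10.61, 11.63 and 11.19 in MII adult pools and 10.13, 14.55 and 14.73 in GV adult pools. The pool at 10.13 was GV adult replicate 1, and the other GV pools stood well above every MII pool. Over 9 arrays the mean was 11.14 ± 0.51 (SD, n = 3) at MII against 14.64 ± 0.13 (SD, n = 2) at GV. The log2 difference was -3.50 with an SE of 0.55 and an adjusted p of 0.0215 in limma, rank 8 of 14409 probe sets by p. In all, 0.118% of probe sets were called there. Over 12 arrays the log2 difference was -2.00 and limma's adjusted p 0.674. With only GV adult replicate 1 left out it was also -3.50, but limma's adjusted p was 0.342, and with median centring of the 9 arrays it was -3.40 with 0.307. The call was thus made only where all 3 arrays were left out, and not with median centring of the remaining arrays.

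NDUFA7 had the largest difference in mean of the members in adult maturation, in either set of arrays. It read 3.48, 4.05 and 4.22 in MII adult pools and 9.27, 8.52 and 9.49 in GV adult pools. All GV values lay more than 4 units above all MII values, GV adult replicate 1 among them. The mean was 3.92 ± 0.39 against 9.09 ± 0.51 (SD, n = 3 each), a log2 difference of -5.18 with an SE of 1.45. Limma's unadjusted p was 0.00205 and its adjusted p 0.563, and over 9 arrays the difference was -5.09 with an adjusted p of 0.173. The other NDUFA7 probe set read 5.47, 6.06 and 7.81 in MII adult pools and 9.05, 6.36 and 3.05 in GV adult pools, with a log2 difference of 0.29. Both NDUFA7 probe sets passed the filter, and the mean of the pair differed by -2.44.

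At unadjusted p under 0.05, 4 members were lower over 12 arrays, against 3.98% of kept genes, and 0 higher, against 3.35%. They were NDUFA7, NDUFB11, NDUFB9 and NDUFC2, and with 1 array left out their number was 2 to 8, with 8 without GV adult replicate 1. Over 9 arrays 8 were lower, against 6.36%, and 0 higher, against 5.66%, with NDUFA12, NDUFB3, NDUFS4 and NDUFAB1 in addition. Groups did not overlap for 4 members over 12 arrays, all lower, against 7.13%, and for 10 over 9 arrays, all lower, against 15.5%.

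NDUFB3, a distal membrane-arm subunit, read 10.00, 10.47 and 7.35 in MII adult pools and 9.22, 13.30 and 13.03 in GV adult pools. The groups overlapped only through GV adult replicate 1. The log2 difference over 9 arrays was -3.89 with an SE of 0.97 and an adjusted p of 0.138 in limma, and over 12 arrays -2.58. In prepubertal donors NDUFB3 read 12.88, 10.54 and 10.37 in MII pools and 12.61, 10.80 and 12.53 in GV pools. NDUFC2, of the proximal membrane arm, read 7.20, 8.08 and 4.59 in MII adult pools and 7.08, 11.51 and 11.30 in GV adult pools, with the same array out of line. Its log2 difference was -4.78 over 9 arrays (SE 1.22, adjusted limma p 0.144) and -3.34 over 12. MII adult replicate 3 was the lowest MII adult pool for both genes, at 7.35 for NDUFB3 and 4.59 for NDUFC2.

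NDUFS4, a matrix-arm subunit whose loss in humans and mice gives a Leigh-like disease, read 10.50, 11.93 and 8.58 in MII adult pools and 7.41, 13.25 and 13.50 in GV adult pools. Its 9-array difference of -3.04 (SE 0.85, adjusted limma p 0.173) shrank to -1.05 over 12 arrays. MII adult replicate 3, at 8.58, was again the lowest MII adult pool. NDUFB11 read 3.56, 6.15 and 2.85 in MII adult pools and 8.65, 6.28 and 10.18 in GV adult pools. The groups were apart, but MII adult replicate 2 nearly met GV adult replicate 2. It differed by -4.18 over 12 arrays (SE 1.39, unadjusted limma p 0.0070) and -4.04 over 9. The size of these differences is uncertain, as they rest in part on the low MII values of 3.56 and 2.85. In GV prepubertal pools NDUFB11 read 9.54, 8.55 and 8.70.

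By role, 9 of 9 matrix-arm accessory genes were lower over 9 arrays, with a median of -1.53, and 7 of 9 over 12. In the distal membrane arm 8 of 11 were lower over 9 arrays and 6 over 12, in the proximal membrane arm 6 of 9 and 7 of 9, and on the quinone side 3 of 3 and 1 of 3. Of the NADH-oxidising core genes 2 of 3 were lower in both sets, and NDUFS1 differed by 0.65 over 9 arrays and 0.48 over 12. NDUFAB1, the mitochondrial acyl carrier protein, differed by -2.23 over 9 arrays and -1.52 over 12. Members that were nearly level over 9 arrays were NDUFB4 at 0.02, NDUFA4 at 0.01 and NDUFB8 at 0.12.

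**Figure D4:**
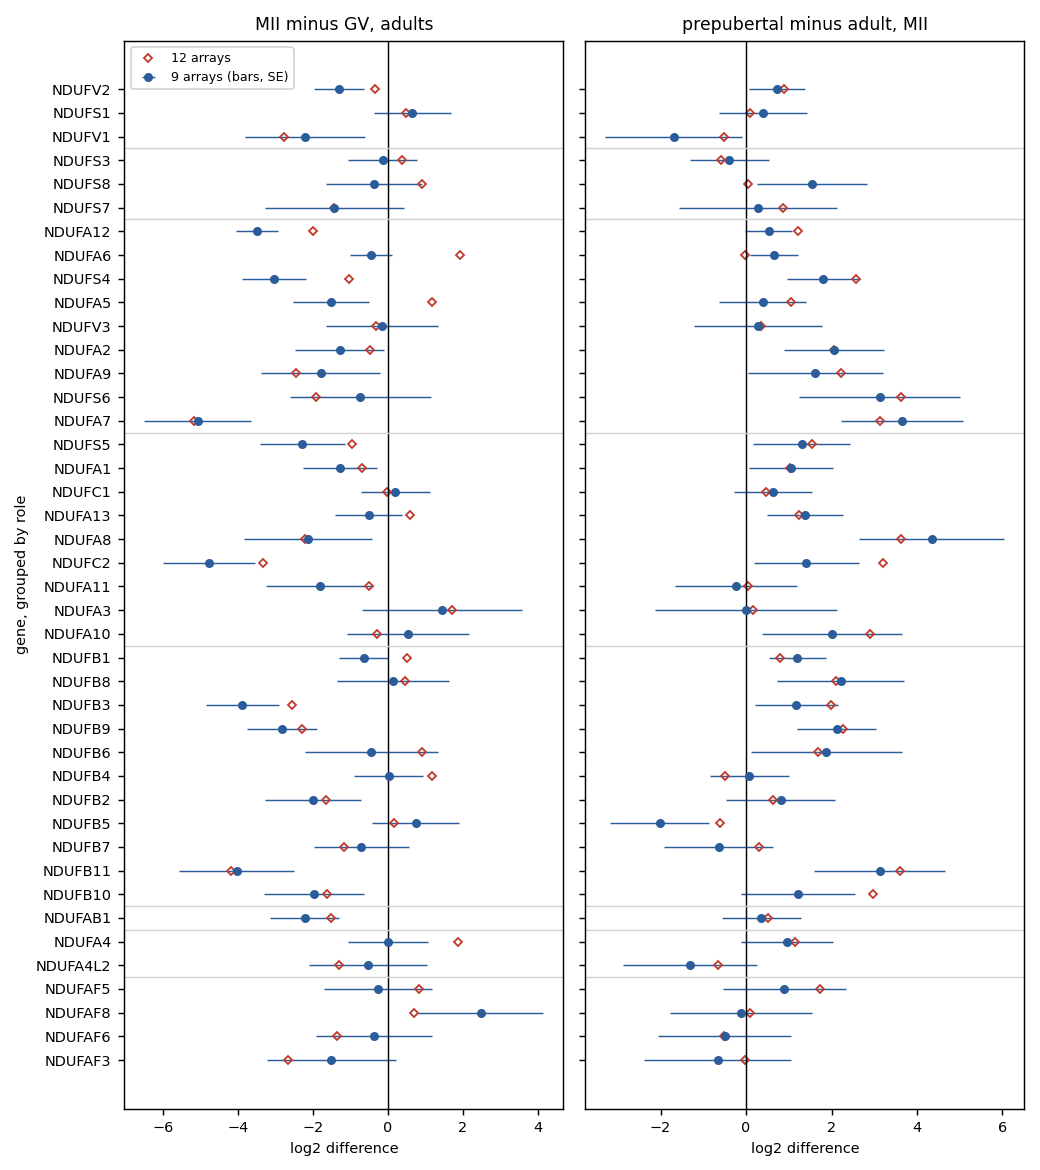
Log2 difference (horizontal axis) of each member for MII minus GV in adults and for prepubertal minus adult at MII, with SE bars over 9 arrays and diamonds for 12 arrays. For NDUFA12 in adults the 9-array value is -3.50 and the 12-array value -2.00, and most members lie left of 0 in adults and right of 0 in the age comparison.

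The third comparison made the same contrast in prepubertal oocytes. Members were split: 23 of 38 were lower at MII over 12 arrays and also over 9, against 59.0% and 53.3% of kept genes. The median log2 difference was -0.38 against -0.28, and -0.56 against -0.13. It turned to 0.53 over 12 arrays and 0.24 over 9 when arrays were centred on their medians, with 10 and 17 of 38 lower and all kept genes at 0.62 and 0.68. No member was called, with 0% of probe sets called, and at unadjusted limma p under 0.05 0 were lower over 12 arrays, against 1.64%, and 0 higher, against 0.848%. With the replicate number as a block, 0 members were called and 1 had an unadjusted limma p under 0.05 over 12 arrays; in the 2 prepubertal groups alone it was 7 with the block, against 2 without it. Over 9 arrays 4 were lower, against 3.54%, namely NDUFA12, NDUFC2, NDUFB5 and NDUFV1, and 0 higher, against 3.20%. Groups did not overlap for 6 lower members, against 5.86%, and 1 higher, against 3.22%, over 12 arrays. Over 9 arrays there were 18 lower, against 21.9%, and 3 higher, against 18.9%.

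NDUFA12 read 13.73, 11.56 and 11.78 in MII prepubertal pools and 14.51, 13.68 and 14.57 in GV prepubertal pools. The MII value of 13.73 came from replicate 1, which carried the cumulus signal, and it alone overlapped the GV range. The mean over 9 arrays was 11.67 ± 0.16 against 14.12 ± 0.63 (SD, n = 2 each), a log2 difference of -2.45 with an SE of 0.61. Limma's unadjusted p was 0.00109 and its adjusted p 0.544. Over 12 arrays the difference was -1.89. NDUFC2 read 13.37, 7.07 and 9.00 in MII prepubertal pools and 13.70, 10.90 and 12.29 in GV prepubertal pools, with replicate 1 the highest in both groups. It differed by -3.56 over 9 arrays (SE 1.34) and -2.48 over 12.

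NDUFB5, a distal membrane-arm subunit, read 11.19, 7.02 and 6.87 in MII prepubertal pools and 12.60, 10.36 and 10.05 in GV prepubertal pools. Replicate 1 was again the highest of each group. The log2 difference was -2.64 over 12 arrays (SE 1.31) and -3.26 over 9 (SE 1.26). In adults NDUFB5 read 8.36, 8.10 and 10.46 in MII pools and 9.95, 8.97 and 7.51 in GV pools, which overlapped. NDUFV1, the NADH-binding core subunit, read 8.07, 5.93 and 3.17 in MII prepubertal pools and 8.97, 9.15 and 8.06 in GV prepubertal pools. It differed by -3.00 over 12 arrays (SE 1.52) and -4.06 over 9 (SE 1.75). In adults NDUFV1 read 3.69, 7.16 and 7.90 in MII pools and 10.17, 7.10 and 9.85 in GV pools, also with overlap.

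The fourth comparison, age at the GV stage, depended on the arrays used. Over 12 arrays 30 of 38 members were higher in prepubertal pools, against 62.2% of kept genes, with a median log2 difference of 0.88 against 0.40. Over 9 arrays 21 of 38 were higher, against 56.3%, with a median of 0.16 against 0.18, and centring those 9 arrays on their medians turned it to -0.16 against -0.14, with 17 of 38 higher. The sign differed between both sets of arrays for 13 of 38 members. Without GV adult replicate 1 alone the median over the remaining arrays was 0.26. No member was called, with 0% of probe sets called. At unadjusted limma p under 0.05 1 member, NDUFA7, was lower over 12 arrays, against 0.336% of kept genes, and 0 were higher, against 2.24%. Over 9 arrays 0 were lower, against 1.33%, and 0 higher, against 2.95%. Groups did not overlap for 2 higher members, against 4.19%, over 12 arrays, and for 5 higher and 3 lower over 9, against 16.1% and 11.3%.

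NDUFA7 read 3.77, 5.08 and 8.55 in GV prepubertal pools and 9.27, 8.52 and 9.49 in GV adult pools. The prepubertal pools were spread widely, and replicate 3 reached into the adult range. The log2 difference was -3.29 with an SE of 1.45 and an unadjusted limma p of 0.0353, and -2.18 over 9 arrays. With this probe set the GV age difference had the opposite sign to the MII age difference of 3.13. The other NDUFA7 probe set differed by 0.22 at GV and -0.61 at MII over 12 arrays, with the signs reversed. For the probe set used, the test of that contrast, the maturation change in prepubertal oocytes minus that in adults, gave 6.42 with an SE of 2.05, an unadjusted limma p of 0.00553 (rank 7 of 14409) and an adjusted p of 0.9998. Over 9 arrays it gave 5.83 with an SE of 2.11 and an unadjusted limma p of 0.0147.

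That interaction called 0 members, with 0% of probe sets called, over 12 and over 9 arrays. Over 12 arrays 23 of 38 members were above 0, against 42.9% of kept genes, with a median of 0.20 against -0.31. Over 9 arrays it was 30 of 38 against 50.4%, with a median of 0.57 against 0.02. Quantile normalization of the 12 arrays turned the median to -0.04, with 18 of 38 above 0. At unadjusted limma p under 0.05 1 member, NDUFA7, was higher over 12 arrays, against 0.395%, and 0 were lower, against 0.614%. Over 9 arrays NDUFA7, NDUFS4 and NDUFB1 were higher, against 1.21%, and NDUFB5 was lower, against 1.55%. For NDUFA12 the interaction was 0.10 over 12 arrays and 1.04 with an SE of 0.82 over 9, so its lower MII signal was not shown to differ in size between the ages. The MII adult arrays enter the first 2 comparisons and the interaction, and these results are not independent of each other.

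The 4 assembly factors were mixed between ages at MII. Of the 4, 2 were higher over 12 arrays, against 52.3% of kept genes, and 1 over 9, against 57.4%, with medians of 0.02 and -0.31. In prepubertal oocytes all 4 read lower at MII in both sets of arrays, with medians of -1.45 and -1.72, and none passed the test. NDUFAF5, which hydroxylates an arginine of the core subunit NDUFS7, read 12.34, 8.56 and 11.18 in MII prepubertal pools, 8.45, 8.42 and 10.04 in MII adult pools, 12.21, 12.56 and 10.99 in GV prepubertal pools and 5.95, 12.16 and 6.32 in GV adult pools. The GV adult pools were split, with replicate 2 alone in the prepubertal range. The GV age difference was 3.77 with an SE of 1.46 and an unadjusted limma p of 0.0180 over 12 arrays, and 2.53 over 9. NDUFAF8, the partner that stabilises NDUFAF5, read 9.83, 9.35 and 6.98 in GV prepubertal pools and 10.58, 8.15 and 2.28 in GV adult pools, and it differed by 1.72 over 12 arrays and 2.95 over 9. It read 8.18, 8.40 and 6.74 in MII prepubertal pools and 6.64, 7.57 and 8.86 in MII adult pools, with overlap.

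Other respiratory chain genes were on the same side as complex I between ages at MII. In MII prepubertal pools 4 of 4 complex II genes, 9 of 9 complex III genes, 9 of 9 complex IV genes (NDUFA4 among them) and 14 of 17 complex V genes were higher than in MII adult pools over 12 arrays. Their medians were 1.20, 1.42, 1.50 and 0.97. Over 9 arrays it was 4, 9, 9 and 13, with medians of 0.59, 0.55, 0.95 and 0.57. Of all kept genes 52.3% were higher over 12 arrays and 57.4% over 9. None was called, and at unadjusted limma p under 0.05 the counts over 12 arrays were 0, 2, 2 and 2, all higher, against 2.54% of kept genes. Over 9 arrays they were 0, 1, 1 and 2, all higher, against 1.65%. Among 4 further assembly factors outside the NDUFAF names, 1 was higher over 12 arrays and 0 over 9.

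In adult maturation 3 of 4 complex II genes, 5 of 9 of complex III, 7 of 9 of complex IV and 13 of 17 of complex V were lower at MII over 9 arrays. Over 12 arrays it was 3, 5, 5 and 10. Of all kept genes 52.5% were lower over 9 arrays and 50.2% over 12. ATP5IF1, which inhibits ATP hydrolysis by complex V, was the 1 gene of these lists called, over the 9 arrays and not over 12. Over the 9 arrays it averaged 12.03 ± 0.55 (SD, n = 3) in MII adult pools, against 15.17 ± 0.66 (SD, n = 2) in GV adult pools. The log2 difference was -3.14 with an SE of 0.54 and an adjusted p of 0.0393 in limma. In that fit 0.118% of probe sets were called. Over 12 arrays ATP5IF1 averaged 12.03 ± 0.55 in MII adult pools and 13.72 ± 2.55 in GV adult pools (SD, n = 3 each), a log2 difference of -1.69 with an adjusted p of 0.724 in limma, so it was not called there.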

How the data were processed

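The deposited table holds log2 signals, made by the authors with MAS5 per the submitters' processing notes; no MAS5 version is given in the sources used here. The linear mean of each array without the lowest and highest 2% was 500.0 to 500.3, so arrays were not scaled again. Of 24128 probe sets, 112 controls were left out and 14409 with a 12-array mean above the 40th percentile were kept. Symbols came from the platform annotation (13292 probe sets with 1 symbol, 86 with several, 10638 with none), and all 42 members matched a RefSeq gene table of cattle by Entrez identifier. The files give no detection calls; the number of arrays limits the precision.

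The 4 groups were modelled in limma 3.58.1 under R 4.3.3 (intensity trend, 8 residual degrees of freedom over 12 arrays, 5 over 9), with Benjamini-Hochberg adjustment over 14409 probe sets and a threshold of 0.05; the code was tested on simulated data. The members and lists were chosen with earlier results of these data known, as was the choice of 9 arrays. Values in every array are given for NDUFA12 and NDUFA7, for members called, for the 2 members with the smallest unadjusted p in each of the 4 simple comparisons in both sets of arrays, and for the 2 brightest and 2 dimmest. NDUFB9, NDUFS6, NDUFS4 and NDUFC2 in adults, and the second NDUFA7 probe set, were added after their values were seen. Alternatives were quantile normalization, median centring, other filters, a pseudocount of 32, only the groups compared, a letter b found in 4 GV titles as a covariate, a replicate block, no trend, averaging the probe sets of a gene, 8 arrays (also without MII adult replicate 3) and leaving out each array. Deviations of same-numbered prepubertal GV and MII arrays correlated at 0.609, 0.149 and 0.306 for replicates 1, 2 and 3, all above the bound of 0.1. The highest, 0.609, was between the 2 arrays with the cumulus signal. The replicate number was therefore also fitted as a block there, from the data and not the labels. The differences, SEs and p-values given for members come from the fits without the block. No sequences were used here.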

Additional observations from a re-analysis of the deposited data

How the results depend on the processing

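No member was called over 12 arrays in any comparison, nor when any 1 array was left out. In adult maturation 1 member, NDUFA12, was called over 9 arrays (-3.50), over 8 arrays (-3.52) and over 9 arrays with quantile normalization (-3.33); its range was -3.50 to -1.20 when 1 array was left out. The median in adult maturation was -1.29 over 9 arrays, -1.43 with the title letter as a covariate and 0.18 with median centring; leaving out 1 array gave -1.35 (without MII adult replicate 2) to -0.29 (without MII adult replicate 3). In prepubertal maturation it was -1.41 with the title letter and 0.53 with median centring, and -0.60 to -0.23 with 1 array left out. That letter marks 4 GV arrays, replicates 1 and 2 at each age, and no MII array, so it is partly tied to stage. The GV age median was 0.16 over 9 and over 8 arrays, 0.094 over 9 with quantile normalization and -0.16 with median centring; leaving out 1 array gave 0.26 (without GV adult replicate 1) to 1.46 (without GV adult replicate 3). The interaction median was 1.27 over 9 arrays with median centring, and -0.16 to 0.91 with 1 array left out. The cause of these shifts was not tested. The MII age median stayed between 0.61 and 1.37 under all 16 other settings, and between 0.85 and 1.13 with 1 array left out. With the replicate block in the prepubertal maturation fit 0 members were called and the median was -0.38, as without it; members at unadjusted p under 0.05 numbered 1 with the block, against 0 without it, over all 12 arrays, and 7 against 2 over the groups compared alone. The replicate block changed no other call. With the stricter filter (60th percentile) NDUFA7 was not tested.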

Other observations

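Of the 42 members, 12 had more than 1 probe set, which gave 15 further probe sets, 10 of which passed the filter. The sign of their 9-array difference was that of the probe set used for 8 of 15 in the MII age comparison, 8 of 15 in the GV age comparison, 7 of 15 in adult maturation and 14 of 15 in prepubertal maturation. Among the 10 that passed the filter it was 4, 5, 4 and 9. NDUFA5, a matrix-arm subunit, had a second probe set at a mean of 9.28 that differed by 2.26 between ages at MII over 9 arrays, and one more at 6.50 that differed by -3.14. NDUFAB1, the acyl carrier, had another at 6.17 that differed by -2.61 in adult maturation, beside -2.23 for the probe set used.

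Of the 7 regulators of mitochondrial genes listed, 3 were found on the array, and all 3 passed the filter. PPARGC1B, GABPA, ESRRA and TFAM were not found on it. They were YY1, NRF1 and PPARGC1A. Between ages at GV their median log2 difference was -1.53 over 9 arrays, against 0.18 over all kept genes, and -0.70 over 12 arrays, against 0.40, with all 3 below 0 in both. For MII minus GV in prepubertal pools it was 1.65 over 9 arrays, against -0.13, and 0.90 over 12, against -0.28, with all 3 above 0 in both, YY1 only by 0.03 over 12. None was called by limma in either set of arrays. At unadjusted limma p under 0.05 there was PPARGC1A over 9 arrays, with a GV age difference of -2.52, against 1.33% of kept genes. Between ages at MII the 3 went both ways, with YY1 and NRF1 above 0 and PPARGC1A below 0 in both sets of arrays. There PPARGC1A differed by -3.255 over 12 arrays, with an unadjusted limma p of 0.0425, against 0.497% of kept genes lower. Over 9 arrays it differed by -1.175, with an unadjusted limma p of 0.230. Its mean in MII prepubertal pools was 7.887 ± 3.651 (SD, n = 3) over 12 arrays and 9.967 ± 0.835 (SD, n = 2) over 9. The 12-array difference thus rested in large part on MII prepubertal replicate 1, an array with low oocyte signal. In adult maturation the 3 also went both ways, with YY1 below 0.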
